A study of Mus musculus with 10 samples.

Results

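The phase II enzymes examined here are the glutathione S-transferases (GST), the UDP-glucuronosyltransferases (UGT) and the sulfotransferases (SULT) of mouse liver. Their probes were chosen by gene symbol in the platform annotation: Gst followed by a class letter (a, k, m, o, p, t or z) and a digit, Mgst and a digit, Ugt1, Ugt2 or Ugt3, and Sult and a digit. The rule took 61 of 19070 genes with a symbol on the array, and 99 of 45281 probes. Of these, 41 probes belonged to GST genes, 35 to UGT genes and 23 to SULT genes. RNA came from livers of 10 FVB mice, an inbred laboratory strain, and each array was taken as 1 mouse. The 6 mice of the LKB1 group had received a plasmid with wild-type LKB1 through the tail vein, 1 injection per week over 8 weeks, and the 4 control mice were untreated. LKB1, encoded by Stk11, is a kinase and tumour suppressor that activates AMPK. As the controls are labelled as untreated, the injections, the plasmid and the added LKB1 cannot be told apart. Neither the promoter of the plasmid nor the cells that took it up are given in the labels. The age and sex of the mice are likewise not given there. Samples are labelled as hepatocytes by source and as liver by tissue.

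Phase II enzymes attach a polar group to a lipophilic molecule so that it can leave the cell and be excreted in bile or urine. GSTs add glutathione to electrophiles such as drug epoxides and products of lipid peroxidation. UGTs of the endoplasmic reticulum add glucuronic acid from UDP-glucuronic acid to bilirubin, steroids, bile acids and drugs, and cytosolic SULTs add sulfate from PAPS to phenols, steroids, catecholamines and bile acids. Hepatocytes carry most of this capacity in the body. Their transcription depends on liver factors such as HNF1 and HNF4 alpha, and on the xenobiotic sensors PXR, CAR, the aryl hydrocarbon receptor, PPAR alpha and NRF2.

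The genes of the UGT1 family lie in 1 locus, in which each gene has its own first exon and promoter and all share the remaining exons. Promoter sequence from RefSeq (GRCm38.p6, from the C57BL/6J strain rather than FVB) was on hand for 54 of the 61 genes. In the 250 bases before the start, the first letters of the HNF1 site, GTTAATNATT, occurred on either strand in 5 of these 54 genes (9.26%), against 119 of all 27025 genes in the promoter table (0.44%). The whole HNF1 site, GTTAATNATTAAC, occurred in 0 of the 54 and in 3 of all genes (0.0111%), and the shorter form was taken after that count was known. The matches in the measured genes are printed 5′ to 3′ on the gene's strand, with the motif in capitals, because 3 of the 4 belong to the UGT1 family, which was examined for a common direction. They lie at chr1:88211899-88211938 (plus strand) for Ugt1a1, chr1:88055321-88055360 (plus strand) for Ugt1a10, chr1:88070669-88070708 (plus strand) for Ugt1a9 and chr5:87569061-87569100 (minus strand) for Sult1d1.
Ugt1a1: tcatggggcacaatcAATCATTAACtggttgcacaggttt
Ugt1a10: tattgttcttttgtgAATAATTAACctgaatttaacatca
Ugt1a9: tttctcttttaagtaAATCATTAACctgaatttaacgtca
Sult1d1: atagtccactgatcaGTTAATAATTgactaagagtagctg

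In the UGT1 genes the motif was read on the opposite strand, and it lay 45 to 36 bases before the start in Ugt1a1, 75 to 66 in Ugt1a10 and 95 to 86 in Ugt1a9. The fifth gene with a match, Sult2a6, was not detected on any array. The D-box of clock-driven PAR bZIP factors, TTANGTAA, was found in Sult1a1, Ugt1a9 and Ugt2b1 (5.56% of the 54 genes, against 2.44% of all genes), and in Ugt1a9 it shares a base with the HNF1 match. The antioxidant response element bound by NRF2, TGACNNNGC, was found in Gsta3, Gstm5, Gstm7 and Mgst1 (7.41% against 11.5%), and the core letters bound by the aryl hydrocarbon receptor, GCGTG, in 10 genes (18.5% against 30.9%). Each match describes letters only, in a window that leaves out distant elements.

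Gsta1 and Gsta2, alpha class genes of chromosome 9, are alike in this region. Their 250 bases before the start were 71.4% identical when aligned with gaps, against 54.8% for Gsta1 and Gsta3 and 51.7% for Gsta2 and Gsta3. The longest run they share, 29 bases, is in capitals, and lies 118 to 90 bases before the start of Gsta1 (window chr9:78230516-78230615, plus strand) and 121 to 93 bases before that of Gsta2 (window chr9:78347202-78347301, minus strand). These promoters are shown because Gsta1 held 2 of the 5 phase II probes with an unadjusted p under 0.05 between the groups, and Gsta2 had the more similar promoter.
Gsta1: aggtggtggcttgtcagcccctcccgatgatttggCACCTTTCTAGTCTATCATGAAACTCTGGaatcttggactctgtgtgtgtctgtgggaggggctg
Gsta2: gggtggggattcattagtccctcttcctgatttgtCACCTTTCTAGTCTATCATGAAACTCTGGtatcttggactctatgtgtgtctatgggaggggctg

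Between 15374 and 16839 probes were detected per array at a detection p under 0.05, among them 62 to 68 of the 99 phase II probes, and arrays correlated at r = 0.983 to 0.994 over the probes kept for testing. With so few arrays, every value has limited precision. Clustering on background probes, those detected on no array, was cut into 2 array sets, a number that was fixed rather than found. Set A held untreated replicates 1 and 2 with LKB1 replicates 1, 2 and 4, and the rest formed set B. The labels do not say what the sets are, and each holds mice of both groups. Of 8 hepatocyte markers all were measured, and so were 8 of 9 Kupffer cell markers and 6 of 7 endothelial markers on the array, so the RNA was not that of hepatocytes alone. In such bulk RNA, fewer cells of a type and less RNA per cell cannot be told apart.

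Most of the GST and UGT genes on the array were measured in these livers, and few of the SULT genes. A probe was kept when it was detected on at least 4 of the 10 arrays, which held for 66 of the 99 probes and 42 of the 61 genes. By superfamily, the kept probes were 34 of 41 for GST (22 of 25 genes), 25 of 35 for UGT (15 of 20 genes) and 7 of 23 for SULT (5 of 16 genes). Over all members, 59 probes were detected on all 10 arrays, 25 on none and 8 on 1 to 3 arrays. The genes without a detected probe were, among SULTs, Sult1e1, the oestrogen sulfotransferase, Sult2a1, Sult2a2 and Sult2a6 of the steroid and bile acid sulfotransferases, Sult3a1, Sult3a2, Sult1c1, Sult6b1 and the neuronal Sult4a1. The others were Gstt4, Ugt2a1, known from olfactory epithelium, Ugt2b5, Ugt2b37 and Ugt2b38. A reading below detection depends on the probe as well as on the transcript.

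Several SULT genes are known to be expressed mainly in female mouse liver, Sult2a1 and Sult3a1 among them. The male-predominant genes Mup20, Cyp2d9, Cyp4a12a and Hsd3b5 were detected on all 10 arrays, at mean log2 intensities of 13.02 to 13.78 in the LKB1 group. The Y-linked genes read near background: Kdm5d was detected in 1 untreated and 4 LKB1 livers (means 4.62 and 4.82) and Uty in 2 livers of each group (means 4.77 and 4.65). Elovl3, also male-predominant, was detected on all 10 arrays at means of 9.11 in untreated and 9.50 in LKB1 livers. The female-predominant genes A1bg, Acot3 and Cyp2b9 were detected on all 10 arrays as well, at lower intensities. Their means were 5.24, 8.10 and 7.01 in untreated and 6.04, 7.28 and 6.44 in LKB1 livers. All 4 probes of Xist, which is expressed from the inactive X chromosome of females, were below detection on every array (0 readings). No sex was assigned to the mice from these readings.

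Some detection was partial. Gstm3 was detected in none of the untreated and in 3 LKB1 livers, with highest log2 intensities of 4.72 and 5.08. Sult2b1, a cholesterol sulfotransferase, was detected in 2 LKB1 livers on 1 probe, at up to 5.17, and in 1 LKB1 liver on another. Mgst2 was detected in 1 liver of each group, Ugt2a2 in 1 untreated liver and Sult1b1 in 1 LKB1 liver. None of these 5 genes was tested, and their readings lay close to background in both groups.

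No phase II probe differed between the groups at an adjusted p of 0.05 (limma, 0 of 66). The background was the same, with 0 of 16803 kept probes called (0%), and the smallest adjusted p was 0.422 among the members and 0.166 over all probes. At an unadjusted p under 0.05 there were 5 of 66 member probes, or 7.58%, against 1119 of all probes, or 6.66%. All 5 were lower in LKB1 livers, where 3.18% of all probes had an unadjusted p under 0.05 in that direction. They belong to Gstt2 and Gsta1, with 2 probes each, and to Ugt1a6a. On 1 member probe, of Gstt2, all 6 LKB1 arrays lay below all 4 untreated arrays, as they did on 0.797% of all probes.

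As a whole the members lay slightly lower in LKB1 livers. Of the 66 probes, 48 were lower and 18 higher, with a median log2 fold change of -0.063, against 8571 of 16803 lower (51%) and a median of -0.003 over all probes. By gene, taking the brightest kept probe, 31 of 42 were lower, with a median of -0.05. The differences were small, as they were for most probes on the array. On 62 of 66 probes the log2 fold change lay within 0.3 of 0, and on 50 the 95% confidence interval lay within 0.5 of 0, so larger differences were outside the interval for most probes. Over all 16803 kept probes the same counts were 15972 and 14223. With array medians made equal in place of quantile normalization, the median over all probes moved to -0.145 and that of the members to -0.256, so directions are relative to the scaling. The probes share mice and in part targets, so their number is not a number of independent observations.

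**Figure D1:**
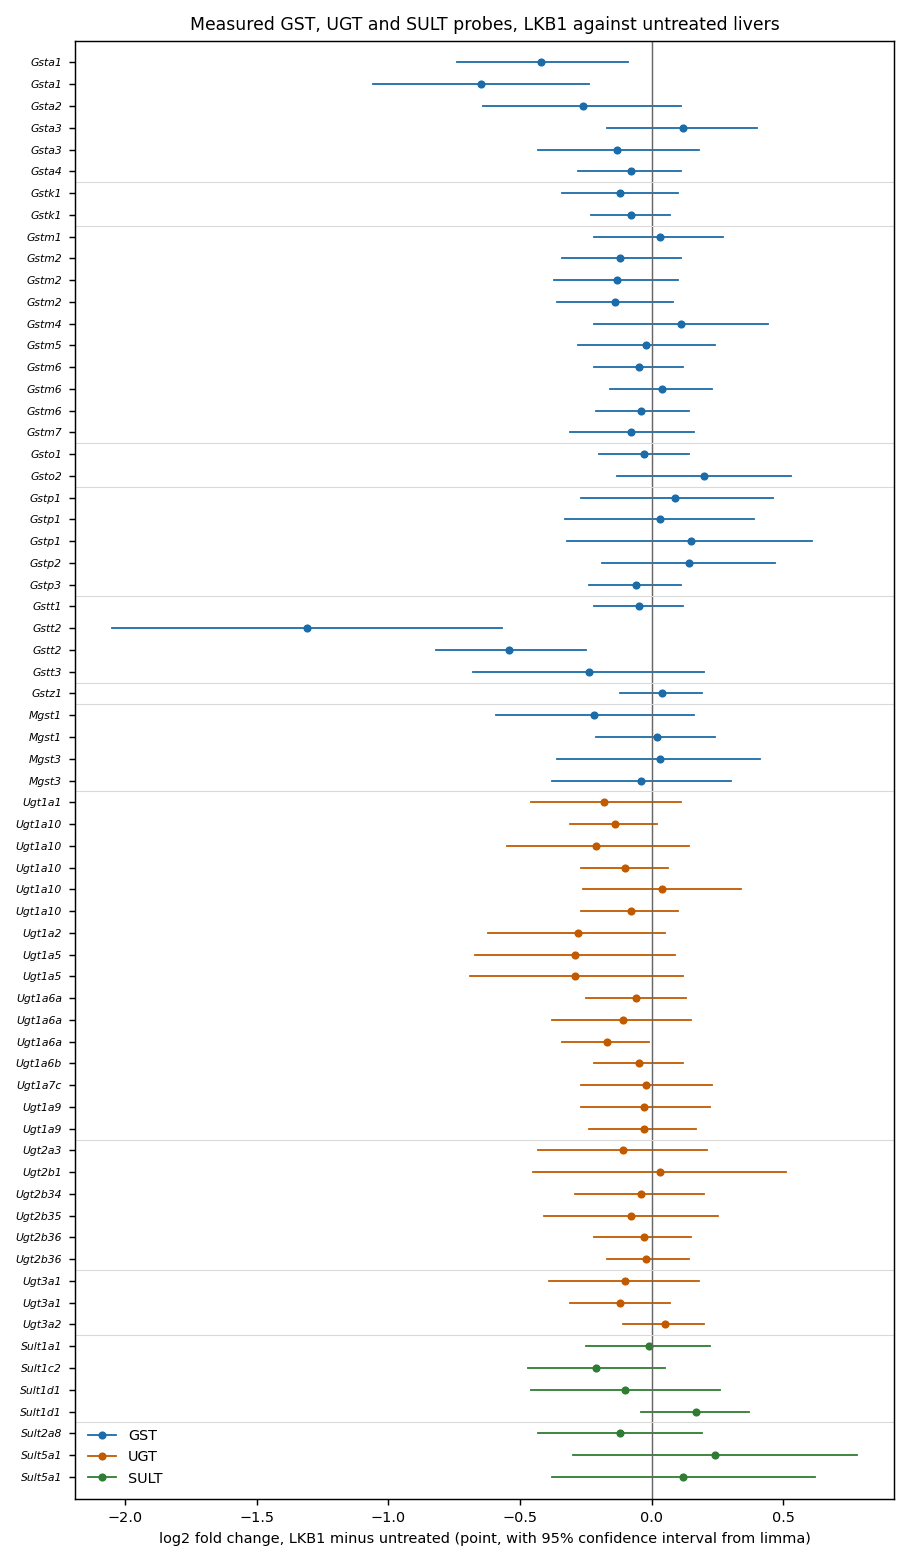
Log2 fold change (x axis, LKB1 minus untreated) of each of the 66 measured probes, one row per probe, with its 95% confidence interval from limma, for GST (blue), UGT (orange) and SULT (green) genes. Most points lie just left of 0, and the probes of Gstt2 and Gsta1 lie farthest to the left, with 18 probes above 0.

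The theta class GSTs, which act on small halogenated and other electrophiles, were lower on 4 of 4 measured probes. Their median log2 fold change was -0.39, or -0.24 without untreated replicate 2, -0.53 within array set A and -0.25 within set B. Gstt2 held the largest difference of all members, on its dimmer probe. On its brighter probe the log2 intensities were 9.63, 9.99, 9.43 and 9.50 in untreated replicates 1 to 4, and 9.38, 8.87, 8.98, 9.32, 9.06 and 8.99 in LKB1 replicates 1, 2, 4, 5, 6 and 7. The highest LKB1 liver lay just below the lowest untreated liver, so the groups did not overlap. The log2 fold change was -0.54 ± 0.13 (SE), or 1.45-fold lower, with a 95% confidence interval from -0.82 to -0.25 and an adjusted p of 0.422 (limma). It was -0.73 within array set A and -0.34 within set B.

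The other Gstt2 probe gave a larger difference with more spread. Its log2 intensities were 7.63, 8.58, 6.47 and 7.89 in the untreated livers and ran from 5.79 over a median of 6.27 to 6.84 in the LKB1 livers. Untreated replicate 3 lay inside the LKB1 range, and the other untreated livers lay above it. The log2 fold change was -1.31 ± 0.34 (SE), or 2.48-fold lower, with an adjusted p of 0.449 (limma). Within set A it came to -1.66 and within set B to -0.97. With array medians made equal this probe passed the test (log2 fold change -1.43, adjusted p = 0.0276, limma), against a range of adjusted p from 0.0276 to 0.999 over the settings tried, and the brighter probe did not (-0.75, adjusted p = 0.222). Untreated replicate 2 was the liver with the highest value on both probes. Without it the difference was -0.42 on the brighter and -1.0 on the other probe. The adjusted p was then 0.999 (limma) on each of the 15 probes shown mouse by mouse, so that value is not particular to Gstt2. Without that mouse 717 of all tested probes had an unadjusted p under 0.05 (limma), against 1119 with it. Gstt2 was the only one of 17 member genes with at least 2 kept probes whose probes differed by over 0.3, and in 11 of the 17 all probes had the same direction.

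The other theta genes differed less. Gstt3 lay at 9.35 ± 0.45 (SD, n = 4) in untreated and 9.11 ± 0.32 (SD, n = 6) in LKB1 livers, a difference of -0.24 ± 0.20 (SE). Gstt1, which in humans is often deleted, lay at 12.35 ± 0.08 (SD, n = 4) and 12.31 ± 0.10 (SD, n = 6), a difference of -0.05 with an interval from -0.22 to 0.12. Both overlapped between the groups.

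**Figure D2:**
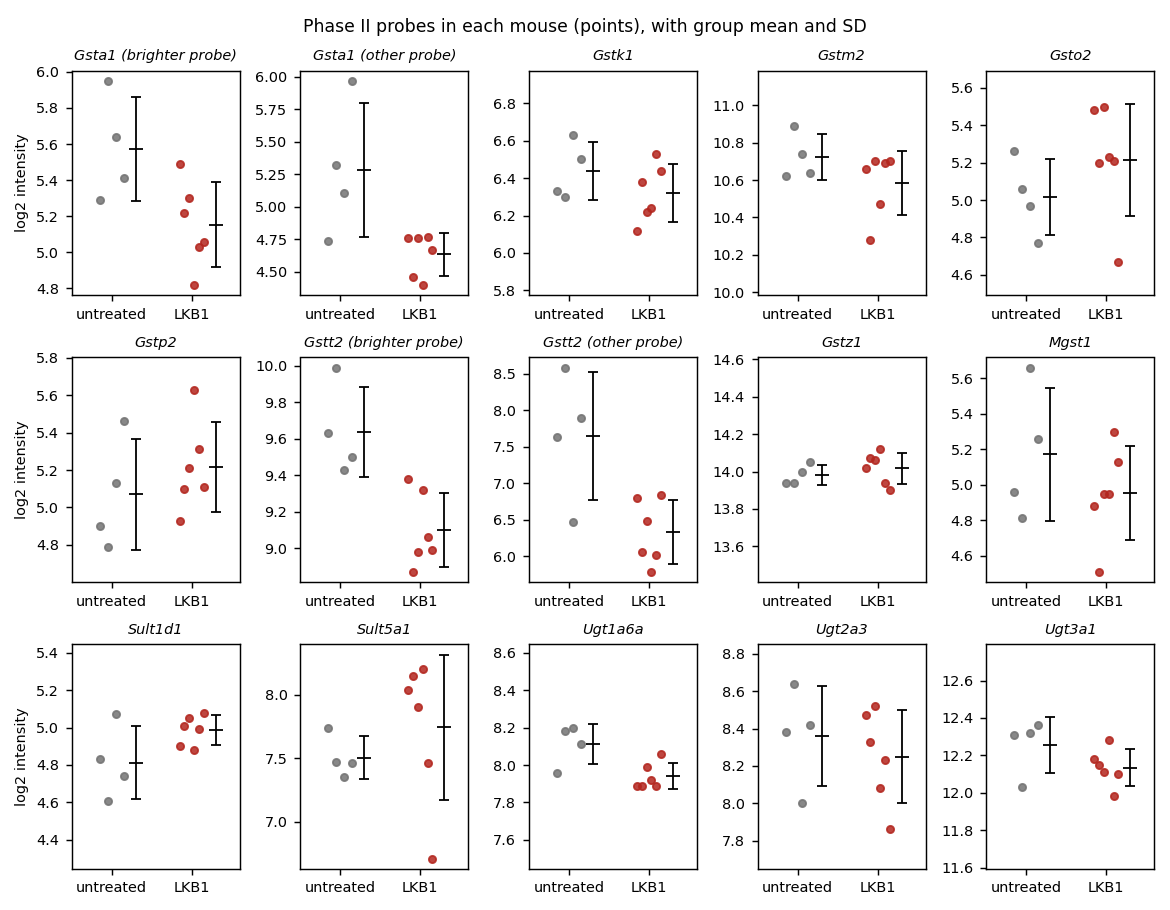
Log2 intensity (y axis, scaled per panel) of 15 phase II probes in each mouse, untreated (grey, 4 mice) and LKB1 (red, 6 mice), with the group mean and SD beside the points. The groups are apart only on the brighter Gstt2 probe, and in the other panels at least 1 LKB1 mouse lies within the range of the untreated mice.

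Alpha class GSTs, which reduce lipid hydroperoxides and conjugate their breakdown products, were lower on 5 of 6 probes, with a median of -0.19 that came to -0.10 without untreated replicate 2 and to -0.29 without untreated replicate 1. Gsta1, whose promoter is shown above, was measured near background. On its brighter probe the log2 intensities were 5.29, 5.95, 5.64 and 5.41 in untreated livers and ran from 4.82 over 5.14 to 5.49 in LKB1 livers. The groups overlapped through LKB1 replicates 1 and 4. The log2 fold change was -0.42 ± 0.15 (SE, adjusted p = 0.645, limma), and it was -0.28 in array set A and -0.55 in set B.

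On the other Gsta1 probe untreated livers read 4.74, 5.32, 5.11 and 5.97, and LKB1 livers ran from 4.40 over 4.72 to 4.77. Untreated replicate 1 lay inside the LKB1 range, and the other 3 untreated livers lay above it. The log2 fold change was -0.65 ± 0.19 (SE, adjusted p = 0.517, limma). Without untreated replicate 4 it was -0.42. All 4 untreated but only 3 LKB1 livers gave a detected reading on it. A dimmer Gsta1 probe, which was not tested, was detected in 2 untreated and 0 LKB1 livers.

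Gsta2 was lower by a difference that did not pass, with 5.20, 6.22, 5.93 and 6.20 in untreated livers and a range from 5.45 over 5.64 to 5.77 in LKB1 livers. All 6 LKB1 livers lay between the lowest and the other untreated livers. Its log2 fold change was -0.26 ± 0.17 (SE), at -0.03 in array set A and -0.49 in set B. Gsta1 and Gsta2 transcripts are closely related, and whether their probes tell them apart was not tested. Gsta3, which in the mouse detoxifies the aflatoxin epoxide, gave 0.12 on its brighter and -0.13 on its other probe. Gsta4, which conjugates 4-hydroxynonenal, differed by -0.08, with an interval from -0.28 to 0.11.

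Mu class GSTs, a cluster of related genes on chromosome 3 with broad activity on epoxides, differed by -0.14 to 0.11 on 10 probes of 6 genes, 7 lower and 3 higher. All 10 confidence intervals lay within 0.5 of 0. Within array set A 6 of the 10 were higher, and within set B all 10 were lower. The smallest p was that of the third probe of Gstm2, at 10.62, 10.89, 10.74 and 10.64 in untreated livers and from 10.28 over 10.67 to 10.70 in LKB1 livers, a difference of -0.14 ± 0.10 (SE). The groups overlapped, and only LKB1 replicates 2 and 5 lay below every untreated liver. Without untreated replicate 2 the difference was -0.08. The other Gstm2 probes gave -0.13 and -0.12. Gstm1 lay at 12.28 ± 0.18 (SD, n = 4) and 12.31 ± 0.18 (SD, n = 6).

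The pi class, whose Gstp1 is a major transferase of male mouse liver, was the 1 GST class in which most probes were higher beside zeta with its single probe, at 4 of 5 and a median of 0.09. Within array set B 4 of the 5 were lower, with a median of -0.15, and without untreated replicate 2 the median was -0.09. With array medians made equal it was -0.15, against -0.145 for all probes. Gstp2 had the smallest p of the class, at 4.90, 4.79, 5.13 and 5.46 in untreated livers and from 4.93 over 5.16 to 5.63 in LKB1 livers, a difference of 0.14 ± 0.15 (SE). The ranges of the groups lay almost on each other, and the difference was 0.05 without untreated replicate 2 and 0.27 without untreated replicate 4. The 3 probes of Gstp1 gave 0.15, 0.09 and 0.03, and Gstp3 gave -0.06. Genes of the mu class, and likewise those of the pi class, are closely related in sequence, and whether their probes tell them apart was not tested.

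The remaining soluble classes did not differ beyond the spread between mice. Gstk1, the mitochondrial and peroxisomal kappa enzyme, read 6.33, 6.30, 6.63 and 6.50 in untreated and from 6.12 over 6.31 to 6.53 in LKB1 livers on the probe of smaller p, a difference of -0.12 ± 0.10 (SE), or -0.05 without untreated replicate 3, and gave -0.08 on its brighter probe. Gsto2, an omega enzyme that reduces dehydroascorbate, read 5.26, 5.06, 4.97 and 4.77 in untreated and from 4.67 over 5.22 to 5.50 in LKB1 livers, a difference of 0.20 ± 0.15 (SE). Its LKB1 livers spanned the whole untreated range, and without untreated replicate 4 the difference was 0.12. Gsto1 differed by -0.03, with an interval from -0.20 to 0.14. Gstz1, the maleylacetoacetate isomerase of tyrosine breakdown, read 13.94, 13.94, 14.00 and 14.05 in untreated and from 13.90 over 14.04 to 14.12 in LKB1 livers. Its difference was 0.04 ± 0.07 (SE), with an interval from -0.12 to 0.19, and its sign turned with the scaling (-0.17 with array medians made equal).

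Microsomal GSTs, membrane proteins not related in sequence to the soluble classes, were split with 2 probes lower and 2 higher. Mgst1, an abundant liver enzyme, gave -0.22 ± 0.17 (SE) on its dimmer probe, with 4.96, 4.81, 5.66 and 5.26 in untreated and from 4.51 over 4.95 to 5.30 in LKB1 livers. Without untreated replicate 3 the difference on that probe was -0.05, and without untreated replicate 2 it was -0.34. The brighter Mgst1 probe lay at 14.44 ± 0.21 (SD, n = 4) and 14.46 ± 0.11 (SD, n = 6), a difference of 0.02, and the groups overlapped on both probes. Mgst3 differed by 0.03 and -0.04 on its probes.

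UGT genes had the most uniform direction among the 3 superfamilies. Of 25 probes, 22 were lower in LKB1 livers, at a median of -0.08, and by gene 13 of 15 were lower. The exceptions by gene were Ugt2b1 at 0.03 and Ugt3a2 at 0.05. All 25 differences lay within 0.3 of 0, as did 15972 of all 16803 kept probes. On 1 UGT probe (4%) the unadjusted p was under 0.05 (limma), against 6.66% of all probes. The median over UGT probes of each mouse's difference from the untreated mean was -0.049, -0.012, 0.026 and 0.034 in the untreated mice, and -0.075, -0.079, -0.122, -0.061, -0.057 and -0.070 in LKB1 replicates 1, 2, 4, 5, 6 and 7. Every LKB1 mouse thus lay below every untreated mouse. No test was made of this median, since the members were chosen with earlier results known. The medians are taken from the mean of the same untreated mice, so its error is shared by all LKB1 values. Of the 25 probes, 16 belong to the UGT1 locus. How often other sets of as many probes separate in this way was not tested.

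The same medians overlapped for GST, at -0.050 to 0.112 in untreated and -0.129 to -0.027 in LKB1 mice, and for all measured probes they lay between -0.017 and 0.030. With array medians made equal, the UGT medians overlapped, at -0.124 to 0.318 in untreated and -0.454 to -0.003 in LKB1 mice. Measured against the median of all probes on that scale, they ran from -0.033 to 0.040 in untreated and from -0.162 to -0.072 in LKB1 mice. Within array set A 15 of 25 UGT probes were lower, with a median of -0.03, and within set B 22 of 25, with a median of -0.12.

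**Figure D3:**
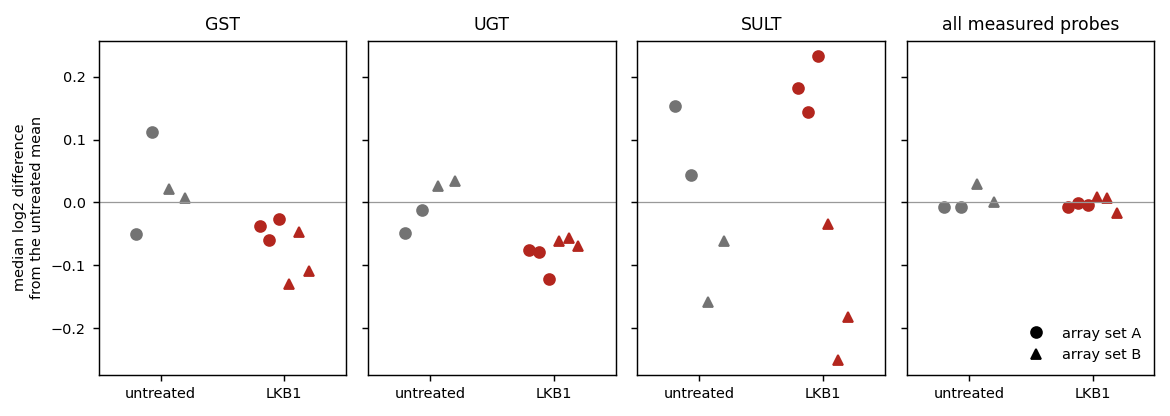
Median over the probes of each superfamily of a mouse's log2 difference from the mean of the untreated mice (y axis), for untreated (grey) and LKB1 (red) mice of array set A (circles) and set B (triangles), beside the same for all measured probes. The UGT medians of the LKB1 mice, from -0.122 to -0.057, lie below those of the untreated mice, whereas the SULT medians separate by array set.

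In the UGT1 locus 15 of 16 probes, and the brightest probe of 8 of 8 genes, were lower, with a median over probes of -0.11 and a range from -0.29 to 0.04. As the genes share all but their first exon, probes annotated to different genes can read the same transcripts, and the exon that each probe covers was not known here. Ugt1a6a, which encodes a transferase for planar phenols, had the 1 UGT probe with an unadjusted p under 0.05. It read 7.96, 8.18, 8.20 and 8.11 in untreated livers and from 7.89 over 7.91 to 8.06 in LKB1 livers. Untreated replicate 1 lay among the LKB1 livers and the other 3 above them, and the difference was -0.17 ± 0.08 (SE), adjusted p = 0.735 (limma). The other Ugt1a6a probes gave -0.11 and -0.06.

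Ugt1a1, the bilirubin transferase, lay at 9.09 ± 0.29 (SD, n = 4) in untreated and 8.91 ± 0.17 (SD, n = 6) in LKB1 livers, a difference of -0.18 with an interval from -0.46 to 0.11. Ugt1a10 was read by 5 kept probes, which gave -0.21, -0.14, -0.10, -0.08 and 0.04. Ugt1a5 gave -0.29 on both of its probes and Ugt1a2 gave -0.28 ± 0.15 (SE). Those differences came mainly from array set A, at -0.48 and -0.46 for Ugt1a5 and -0.54 for Ugt1a2, against -0.09, -0.12 and -0.03 in set B. Ugt1a6b, Ugt1a7c and Ugt1a9 differed by -0.05 to -0.02. The UGT1 genes with the HNF1 letters printed above were at -0.18 for Ugt1a1, -0.10 for the brightest Ugt1a10 probe and -0.03 for Ugt1a9, within the range of the locus. Sult1d1, the measured gene outside the locus with these letters, was at -0.10 and 0.17 on its probes.

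UGT2 genes, which encode transferases for steroids, bile acids and drugs, were lower on 5 of 6 probes, with differences from -0.11 to 0.03 and a median of -0.04. The count did not hold across the array sets or without LKB1 replicate 5. Within set A 4 of the 6 were higher (median 0.09), within set B all 6 were lower (median -0.17), and without LKB1 replicate 5 there were 4 higher (median 0.01). Ugt2a3, known for bile acid glucuronidation in humans, had the smallest p. It read 8.38, 8.64, 8.00 and 8.42 in untreated and from 7.86 over 8.28 to 8.52 in LKB1 livers, a difference of -0.11 ± 0.15 (SE), with overlapping groups. The difference was -0.02 without untreated replicate 2 and -0.23 without untreated replicate 3. Ugt2b36 lay at 13.81 ± 0.05 (SD, n = 4) and 13.78 ± 0.13 (SD, n = 6) on its brighter probe, with an interval from -0.22 to 0.15. Ugt2b1, Ugt2b35 and Ugt2b34 differed by 0.03, -0.08 and -0.04. Ugt2b1 and Ugt2b35 were higher within array set A, by 0.38 and 0.19, and lower within set B, at -0.31 and -0.35.

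The UGT3 genes, which in humans use other sugar donors than UDP-glucuronic acid, differed by -0.12 to 0.05. Ugt3a1 read 12.31, 12.03, 12.32 and 12.36 in untreated and from 11.98 over 12.13 to 12.28 in LKB1 livers. Apart from untreated replicate 2, the untreated livers lay above the LKB1 livers. The difference was -0.12 ± 0.09 (SE), or -0.02 within set A and -0.22 within set B. Ugt3a2 differed by 0.05, with an interval from -0.11 to 0.20.

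SULT genes showed no common direction with LKB1, with 4 of 7 probes lower and a median of -0.01. Without untreated replicate 2, 5 of the 7 were higher (median 0.06), and without untreated replicate 3, 5 were lower (median -0.11). Sult5a1, a cytosolic sulfotransferase of little known substrate, had the largest difference, and with it the largest spread. It read 7.74, 7.47, 7.35 and 7.46 in untreated and from 6.71 over 7.97 to 8.20 in LKB1 livers on the dimmer probe, a difference of 0.24 ± 0.25 (SE). LKB1 replicate 7 lay below and LKB1 replicates 1, 2, 4 and 5 above all untreated livers. Without LKB1 replicate 7 the difference was 0.45, and without LKB1 replicate 5 it was 0.15. The brighter Sult5a1 probe gave 0.12 ± 0.23 (SE).

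Sult1d1, which sulfonates dopamine and other catecholamines in the mouse, differed by 0.17 ± 0.09 (SE) on its dim probe, with 4.83, 4.61, 5.07 and 4.74 in untreated and 4.90, 5.01, 5.05, 4.88, 4.99 and 5.08 in LKB1 livers. Without untreated replicate 2 it was 0.1. The brighter probe gave the opposite sign, at -0.10 ± 0.17 (SE). Sult1a1, the phenol sulfotransferase, lay at 12.99 ± 0.21 (SD, n = 4) and 12.97 ± 0.13 (SD, n = 6), a difference of -0.01 with an interval from -0.25 to 0.22. Sult1c2 differed by -0.21 ± 0.12 (SE), with -0.03 in array set A and -0.38 in set B. Sult2a8, a bile acid sulfotransferase of mouse liver, differed by -0.12 ± 0.14 (SE). All of these overlapped between the groups.

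Most SULT probes, though not all, were lower in array set B. With the treatment in the fit, 6 of 7 SULT probes were lower in set B than in set A, and the median over SULT probes of each mouse's difference from the untreated mean was 0.043 to 0.233 in the 5 mice of set A and -0.250 to -0.034 in the 5 mice of set B. On the brighter Sult1d1 probe set A read 9.20 and 9.38 in untreated and 9.34, 9.19 and 9.05 in LKB1 livers, and set B read 8.80 and 8.80 in untreated and 8.62, 8.61 and 8.86 in LKB1 livers. The sets did not overlap. The difference was -0.50 ± 0.08 (SE), with an adjusted p of 0.0385 (limma). Further SULT differences between the sets, none past the test, were -0.57 and -0.42 for the Sult5a1 probes, -0.33 for Sult2a8 and -0.22 for Sult1a1. Sult1c2 differed by only -0.05 ± 0.12 (SE), and the dim Sult1d1 probe was higher in set B, by 0.07. The share of all probes lower in set B was not counted.

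A dim probe of Ugt1a10 differed the other way between the sets, by 0.45 ± 0.09 (SE), with an adjusted p of 0.0438 (limma). It read 6.30 and 6.27 in untreated livers of set A and 6.76 and 6.88 in those of set B. The brighter Sult1d1 probe and this Ugt1a10 probe were the 2 member probes past an adjusted p of 0.05, against 0.792% of all probes. The other kept Sult1d1 probe differed by 0.07 between the sets. The other kept Ugt1a10 probes differed by 0.18, 0.12, 0.10 and -0.20, so the set difference was not shared by all probes of either gene. At an unadjusted p under 0.05 there were 19 of 66 member probes, against 19.8% of all probes. Gsta3 differed by -0.34 and -0.38 between set B and set A and Gstm4 by -0.40, with adjusted p from 0.0649 to 0.0872 (limma). The comparison of the sets was added after the data were seen.

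**Figure D4:**
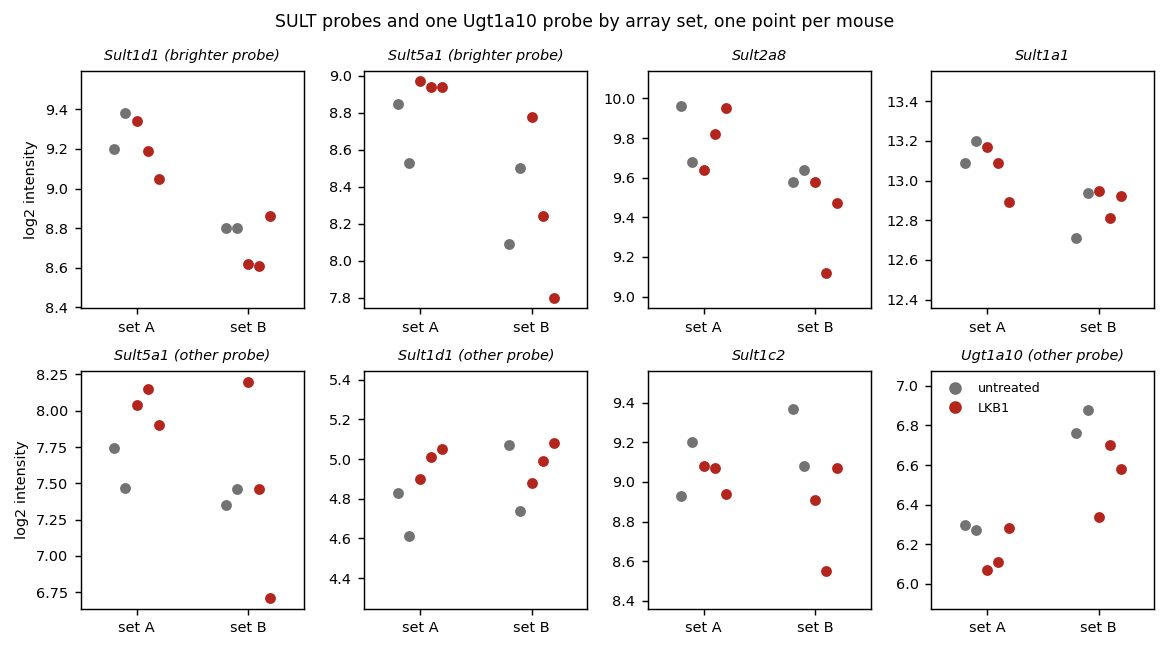
Log2 intensity (y axis, scaled per panel) of the 7 SULT probes and 1 Ugt1a10 probe in each mouse, by array set (x axis), for untreated (grey) and LKB1 (red) mice. The brighter Sult1d1 probe runs from 9.05 to 9.38 in set A and from 8.61 to 8.86 in set B, with mice of both groups in each set.

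Genes that supply the conjugation reactions leaned the same way as the UGT genes, by as little. Of 9 measured cofactor genes, 8 were lower and 1 higher, 0 at an unadjusted p under 0.05 (limma), with a median log2 fold change of -0.07 (6 lower and a median of -0.04 without untreated replicate 2). Ugp2, which makes UDP-glucose, the precursor of UDP-glucuronic acid, was at -0.18 ± 0.10 (SE), the PAPS transporter Slc35b3 at -0.12 ± 0.08 (SE) and Gclm, a subunit of the enzyme that limits glutathione synthesis, at -0.10 ± 0.09 (SE). Other conjugating and hydrolysing enzymes were lower in 12 of 14 genes, with a median of -0.06 and none at an unadjusted p under 0.05. Among them Tpmt, which methylates thiopurines, was at -0.18 ± 0.13 (SE), Inmt at -0.17 ± 0.13 (SE) and the acetyltransferase Nat2 at -0.16 ± 0.14 (SE). Of 4 measured export pumps 3 were lower (3 higher without untreated replicate 4), and the conjugate pump Abcc2 was at -0.28 ± 0.19 (SE).

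Receptors and factors that drive phase II transcription were split, with 6 of 11 higher and 5 lower and a median of 0.00, and 4 of them had an unadjusted p under 0.05, as did 6.66% of all probes. Ppara, the fatty acid receptor, lay at 6.77 ± 0.17 (SD, n = 4) in untreated and 6.31 ± 0.13 (SD, n = 6) in LKB1 livers, without overlap, a difference of -0.46 ± 0.10 (SE, adjusted p = 0.353, limma). Nr1i2, which encodes PXR, lay at 6.95 ± 0.03 (SD, n = 4) and 6.56 ± 0.27 (SD, n = 6), also without overlap, a difference of -0.39 ± 0.13 (SE, adjusted p = 0.586, limma). On 0.797% of all probes all LKB1 arrays lay below all untreated arrays. Mafg, a partner of NRF2, was at -0.31 ± 0.12 (SE), and Arnt, the partner of the aryl hydrocarbon receptor, was at 0.29 ± 0.11 (SE). Nr1i3, which encodes CAR, was at -0.03 and Nfe2l2, which encodes NRF2, at -0.06. Target genes of these receptors outside the families were higher in 4 and lower in 5 of 9, with a median of -0.03. Cyp3a11 had the smallest p among them, at -0.66 ± 0.13 (SE, adjusted p = 0.301, limma), and overlapped between the groups. Next came Cyp2c29 at -0.27 ± 0.14 (SE) and the NRF2 target Srxn1 at 0.17 ± 0.10 (SE). The PPAR alpha target Cyp4a14 was at 0.61 ± 0.52 (SE) and overlapped between the groups. It was detected in only 2 untreated and 4 LKB1 livers, with group means of 4.91 ± 0.37 (SD, n = 4) and 5.51 ± 1.22 (SD, n = 6). The CAR target Cyp2b10 was at 0.08 and the NRF2 target Nqo1 at -0.03.

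Hepatocyte markers were higher in 5 and lower in 3 of 8 genes, with a median of 0.04. Their summed intensity ran from 77800 to 82100 in untreated and from 78000 to 86900 in LKB1 livers. That sum rests mainly on bright markers such as Apoa1, Ttr and Cps1. Fgb, detected in 3 untreated and 3 LKB1 livers, and Tat, detected in 4 and 5, read near background. Kupffer cell and macrophage markers were higher in 8 of 8 measured genes, with a median of 0.27. Without untreated replicate 4, 7 of the 8 were higher and the median was 0.10. At an unadjusted p under 0.05 there were 2, C1qa at 0.37 ± 0.14 and C1qb at 0.43 ± 0.17 (SE), against 6.66% of all probes. Their summed intensity ran from 2200 to 3900 in untreated and from 3180 to 4470 in LKB1 livers. The defining marker Clec4f was detected in all livers and none of the measured ones was at 0. With array medians made equal, 7 of the 8 were higher. Their part in the lower phase II values was not tested. Endothelial markers had a median of 0.05, stellate cell and fibroblast markers of -0.03 and erythroid markers of -0.14, over 6, 6 and 3 measured genes. Of cholangiocyte and lymphocyte markers 2 each were measured, with medians of -0.07 and 0.21. The 3 measured female-predominant genes ran from -0.82 for Acot3 to 0.80 for A1bg, with a median of -0.57 that was 0.05 without untreated replicate 2, -1.11 within set A and -0.02 within set B. The 7 male-predominant genes had a median of 0.02, and no marker gene passed an adjusted p of 0.05 (limma).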

How the data were processed

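Per the labels' protocols, total RNA of 10 mouse livers was extracted with Trizol and amplified with a biotin label for Illumina arrays. Per the file headers, the deposited table holds for each probe a linear average intensity, without normalization, and a p-value of detection. Probes with a detection p-value near 0.5 still read 18.15 to 19.5, so background had not been fully subtracted from the deposited intensity. A second deposited table of processed values by the authors, read as log2 from their match to each array's intensities (slopes of differences 0.935 to 0.998), served as an alternative. Their log base is not named and every column has a median of 4.36. Per the submitters' processing notes the package lumi was used, with no version given.

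The neqc function of limma 3.58.1 (R 4.3.3) applied normexp correction (parameters from detection p-values), quantile normalization and log2, with an offset of 16. Folds are of intensity plus that offset, so they understate differences of dim probes. Probes were tested where 4 or more arrays had a detection p under 0.05, which left 16803 of 45281. Groups were compared with lmFit and eBayes, two-sided and without covariates, and p-values were adjusted by Benjamini-Hochberg over the whole kept table (threshold 0.05). The procedure was tried on simulated data with independent noise per probe and no array sets, a setting that differs from these arrays. SDs and SEs are on the log2 scale and confidence intervals at 95%.

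Genes were named from the platform annotation in GEO (34885 probes with 1 symbol, 18 with several, 10378 not listed). All 99 members matched the RefSeq gene table by Entrez number and 0 symbols needed an update. The number of unmapped columns was 0. A gene with several kept probes was represented by the brightest. Values for every mouse were given for kept members with an unadjusted p under 0.05 or groups apart, for the kept probe of smallest p in each family, and for genes whose probes differ by over 0.3. For 14 other lists counts and, where named, up to 3 genes of smallest p are given. Arnt, Nr1i3, Nfe2l2, Cyp2b10, Nqo1, Cyp4a14, Clec4f, the sex-biased genes and members given by group mean only, were named after their values were seen. Members and lists were chosen with earlier results of these data known. 1 LKB1 title was read as replicate 1. The labels name no separate extractions, and p-values measure the spread between these mice. Array sets came from clustering 24495 probes detected on no array (mean Spearman correlation 0.522 within and 0.482 between sets).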

Additional observations from a re-analysis of the deposited data

Results flagged for a closer look

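Among 30 sets of values (15 probes in each group), 2 held a mouse whose gap to the next, as a share of the group's range, exceeded Dixon's 95% limit. Chance alone gives such a gap in about 1 of 20 sets. For Gsto2 it was LKB1 replicate 7, at a log2 intensity of 4.67 against 5.20 to 5.50 in the other LKB1 livers, a gap of 0.64 of the range. Without it the log2 fold change was 0.31 in place of 0.20. For Ugt3a1 it was untreated replicate 2, at 12.03 against 12.31 to 12.36 in the other untreated livers, a gap of 0.854 of the range. Without it the log2 fold change was -0.19 in place of -0.12.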

How the results depend on the processing

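The absence of called member probes held under no background correction, an offset of 50, both detection filters, the authors' values, array weights, the replicate block, the array set as a block, within each set and with each mouse left out. Over all probes, the count of calls ran from 0 to 1 with a mouse left out (1 without LKB1 replicate 2). With array medians made equal, 15 probes were called, 1 of them a member (Gstt2, -1.43). On that scale the member median was -0.256 and that of all probes -0.145, and Gstz1 turned to -0.17. The member median was -0.026 over all 99 probes without the detection filter and -0.102 within array set B, where Gstz1 was at -0.03. With a mouse left out it ran from -0.084 to -0.052. The count of members at an unadjusted p under 0.05 (limma) then ran from 4 to 9, and that over all tested probes from 717 to 1374. The count of 9 came without untreated replicate 1, where 1168 of all tested probes had such a p. In the replicate block only the numbers 1, 2 and 4 occur in both groups. Untreated replicate 3 and LKB1 replicates 5, 6 and 7 thus did not inform its differences. The block gave 9 members at an unadjusted p under 0.05 (limma), against 1043 of 16803 probes. The member median was -0.017, and the brighter Gsta1 probe was at -0.21. Under the block UGT2 had 5 of 6 probes higher (median 0.06), SULT 5 of 7 (0.07) and GST mu 6 of 10 (0.04). Deviations of arrays with the same number correlated at 0.146, 0.239 and -0.166, so the numbers were not taken to pair mice. Of 311 settings over the 15 probes, 308 kept direction and side of the threshold, 2 reversed (Gstz1) and 1 passed it (Gstt2). Probes near background, such as Gsta1, Gsto2, Gstp2 and the dim Mgst1 and Sult1d1 probes, limit what differences can be seen.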
